A study of Caenorhabditis elegans with 2 samples.

Results

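The 10 tubulin genes described here are 4 alpha-tubulin genes (tba-1, tba-2, tba-4 and mec-12), 5 beta-tubulin genes (tbb-1, tbb-2, tbb-4, tbb-6 and mec-7) and the gamma-tubulin gene tbg-1. They were chosen by name, from a total of 19973 nuclear protein-coding genes in the Ensembl annotation of the WBcel235 assembly (ce11). For each gene, every peak summit from 2000 bp upstream of the annotated gene start to the gene end was taken. The peaks come from chromatin immunoprecipitation followed by sequencing (ChIP-seq) of eGFP-tagged C34F6.9 in Caenorhabditis elegans, a nematode. RefSeq names the product of C34F6.9 a USP domain-containing protein, and USP enzymes remove ubiquitin from other proteins. The only group was whole second-stage (L2) larvae of mixed sex, of strain OP324, in 2 biological replicates. The strain carries the mutation unc-119(ed3) on III and the integrated transgene wgIs324, which holds the tagged gene. There was no second genotype or treatment, so nothing was compared between conditions. Whole larvae were used, so a peak cannot be placed in a cell type, and a peak in few cells cannot be told apart from weak binding in many.

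Microtubules are hollow polymers of alpha- and beta-tubulin pairs, and gamma-tubulin in a ring complex starts their growth. In this animal tba-1, tba-2, tbb-1 and tbb-2 supply much of the tubulin of dividing and resting cells, tba-4 is also widely expressed, and tbg-1 acts at centrosomes and other nucleating sites. The mec-12 and mec-7 genes encode the alpha- and beta-tubulin of the large microtubules of the touch receptor neurons, which sense gentle touch. The tbb-4 product is found in ciliated sensory neurons, and tbb-6 encodes a divergent beta-tubulin. These expression classes are textbook background, and no expression was measured here.

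The data used were 4 deposited peak lists in ce11. The list of each replicate and the list of the pooled replicates each held 30000 peaks and background regions. The optimal list, cut by how well peaks repeat across replicates (irreproducible discovery rate, IDR), held 5692 peaks. These are the 5692 strongest entries of the pooled list, so membership rests on the pooled signal. The signal is the authors' value for each peak against a control, comparable only within a list, and rank 1 is the highest. The lists hold no read counts, so the depth is unknown.

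The sequences below show the places where some of the optimal summits near the tubulin genes lay, and what lay upstream of mec-7 and tba-4. The summits of tba-1 and tba-2 and the more distant tbb-2 summit are not shown. Each sequence is from the RefSeq copy of WBcel235, 5′ to 3′ on the strand of the tubulin gene. Except where another window is named below, it lies within 75 bp of the summit. Capitals mark the 8-letter word TCGCAATA, on either strand, which recurred near these summits and is described further on.
tbb-1, III:10742622-10742772, minus strand: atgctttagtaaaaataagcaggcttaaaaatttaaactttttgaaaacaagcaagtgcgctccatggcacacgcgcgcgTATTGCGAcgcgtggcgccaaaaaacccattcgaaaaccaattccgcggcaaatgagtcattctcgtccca
tbb-2, III:4018216-4018366, minus strand: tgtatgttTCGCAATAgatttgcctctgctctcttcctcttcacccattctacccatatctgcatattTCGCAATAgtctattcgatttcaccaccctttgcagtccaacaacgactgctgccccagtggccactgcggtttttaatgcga
mec-12, III:3139295-3139445, minus strand: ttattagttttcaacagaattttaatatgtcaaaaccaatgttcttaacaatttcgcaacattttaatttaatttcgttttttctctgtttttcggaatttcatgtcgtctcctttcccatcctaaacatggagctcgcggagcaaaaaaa
tbg-1, III:9629910-9630060, minus strand: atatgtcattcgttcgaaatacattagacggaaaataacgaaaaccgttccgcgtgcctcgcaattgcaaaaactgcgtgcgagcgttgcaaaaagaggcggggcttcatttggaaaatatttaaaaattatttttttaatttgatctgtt
The tbb-6 summit lay in an exon, so the 150 bp before the gene start are shown.
tbb-6, V:12261381-12261530, plus strand: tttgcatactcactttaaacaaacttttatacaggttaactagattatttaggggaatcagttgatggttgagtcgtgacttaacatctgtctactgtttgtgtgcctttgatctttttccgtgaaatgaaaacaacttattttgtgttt
For mec-7 and tba-4, which had no optimal summit, the window is centred 150 bp upstream of the gene start.
mec-7, X:7776764-7776914, minus strand: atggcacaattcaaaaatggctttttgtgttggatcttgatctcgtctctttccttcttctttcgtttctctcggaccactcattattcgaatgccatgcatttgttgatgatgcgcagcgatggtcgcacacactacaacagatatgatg
tba-4, II:10918481-10918631, plus strand: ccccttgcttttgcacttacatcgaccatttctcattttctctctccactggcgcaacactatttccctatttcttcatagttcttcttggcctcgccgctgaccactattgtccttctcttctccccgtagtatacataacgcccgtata
Capitals fall in the tbb-1 and tbb-2 sequences, and none fall in the other 5. The tbb-6 sequence shown stops before its summit, and copies of the word lie beyond it, 31 and 48 bp from the summit.

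An optimal summit lay in the window of 7 of the 10 tubulin genes, against 27.4% of all protein-coding genes. The 7 genes were tba-1, tba-2, tbb-1, tbb-2, tbb-6, mec-12 and tbg-1, and tba-4, tbb-4 and mec-7 had none. Together the windows held 10 optimal summits, which is 2.22 per 10 kb of window against 0.67 for all coding genes. Both values count summits that lie nearer to a neighbouring gene. For 5 of the 10 summits the nearest coding 5′ end was that of the tubulin gene. The median window was 3841 bp for the tubulin genes and 4027 bp for all coding genes, so the tubulin windows were not longer. Among the 6 widely expressed members 5 had a summit, and among the 2 touch neuron members 1 had one. Within 500 bp of an own 5′ end the counts were 3 of 6 and 1 of 2, the same share. They were also 3 of 6 and 1 of 2 from 500 bp upstream to the gene end, and by nearest coding 5′ end. With so few genes these are counts and not a tested difference. 

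The members' count stayed above the share of all coding genes in each other way of counting, and which genes made it up varied. Within 500 bp of an own 5′ end it was 5 of 10 against 17%, made up of tba-1, tba-2, tbb-1, tbb-6 and mec-12. From 1000 bp upstream to the gene end it was 7 against 22.8%, and from 500 bp upstream it was 5 against 19.5%. In the 2000 bp upstream without the gene body it was 6 against 23.4%, with tbb-6 left out. With each summit given to a single gene, by nearest coding 5′ end, it was 5 against 19%, made up of tba-1, tba-2, tbb-2, tbb-6 and mec-12. Among the 2846 strongest optimal peaks, from 2000 bp upstream to the gene end, it was 5 against 17.7%, all 5 widely expressed. Of these 5 genes, tbb-1 and tbg-1 had no optimal summit nearer to their own 5′ end than to that of another gene. Taking the 5692 strongest regions of a single replicate instead gave 6 against 26.8% without replicate 1, with tbb-6 lost, and 7 against 27.2% without replicate 2.

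**Figure D1:**
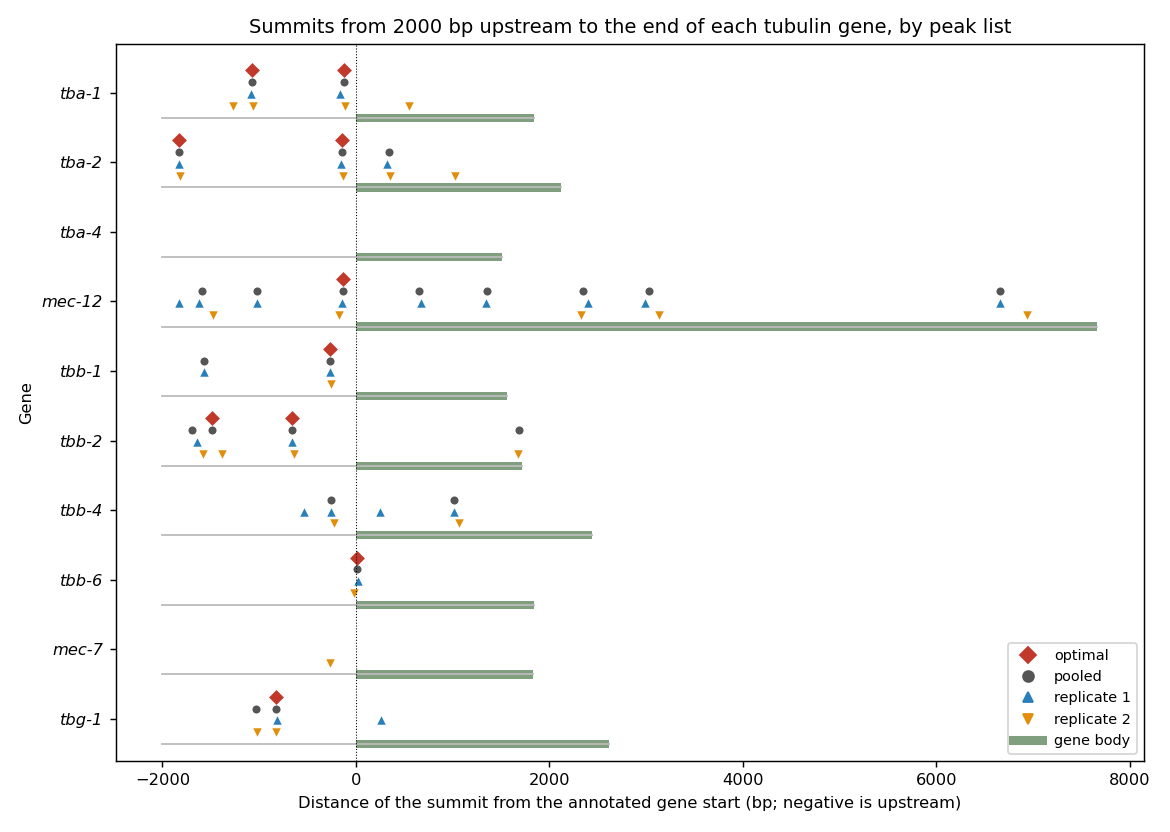
Position of every summit in the 4 ce11 lists (symbols) from 2000 bp upstream to the end of each tubulin gene, as distance from the gene start in bp, with the gene body as a bar. The 10 optimal summits lie upstream of or at the gene start, and tba-4 has no summit in any of the 4 lists.

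The strongest summits next to a tubulin gene start were those of tba-2 and tbb-1, at almost the same rank. At tba-2 (WBGene00006529, I:12964674-12966795, minus strand) the summit lay 141 bp upstream of the gene start, at I:12966936, in intergenic sequence. Its signal was 297 in the optimal list, which placed it at rank 554 of 5692. It ranked 552 in replicate 1 (signal 177) and 543 in replicate 2 (signal 124). The 2 ranks differed by a factor of 1.02, and 2.5% of the 5372 optimal peaks matched in both replicates had a smaller factor. This summit is 1344 bp from the nearest 5′ end of another coding gene, pbs-2, which encodes a proteasome subunit. A weaker region lay in a tba-2 intron, 338 bp after the gene start and 186 bp upstream of the second annotated 5′ end of the gene, at pooled rank 7338. It ranked 4532 in replicate 1 and 10294 in replicate 2. The 3 genes outside the tubulins with the nearest ranks in both replicates, among 5711 genes with a summit within 500 bp of a 5′ end in each, were npp-13 (577 and 548), rib-2 (541 and 564) and crh-1 (511 and 537). The npp-13 gene encodes a nucleoporin and crh-1 the CREB homologue, and likeness was the summed log2 difference of rank over the 2 replicates. The rib-2 values come from the peak it shares with tbb-1.

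At tbb-1 (WBGene00006536, III:10740868-10742432, minus strand) the summit at III:10742697 lay 265 bp upstream of the gene start. It had signal 295 and rank 559 in the optimal list. It ranked 541 in replicate 1 (signal 178) and 564 in replicate 2 (signal 122), a factor of 1.04. The gap between tbb-1 and the divergent gene rib-2, which encodes an exostosin-like glycosyltransferase, is 377 bp, and the summit is closer to rib-2, at 113 bp. The deposited lists cannot say which of the 2 promoters the peak belongs to.

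The tba-1, tba-2 and tbb-2 genes each had 2 optimal summits. At tba-1 (WBGene00006528, I:9785781-9787624, minus strand) the summit at I:9787750 lay 126 bp upstream, with signal 123 and rank 2577. It ranked 2722 in replicate 1 (signal 71.5) and 2152 in replicate 2 (signal 58.1), so both replicates held it among their 5692 strongest. The other tba-1 summit, 1075 bp upstream at I:9788699, was far stronger at signal 521 and rank 101, but it lay 26 bp from the start of the divergent gene cox-5B, a cytochrome c oxidase subunit gene. The tba-2 window likewise took in a distant summit, 1825 bp upstream at I:12968620 with rank 370. That summit lay between pbs-2 and the divergent gene eif-6, 326 bp from the eif-6 start, and eif-6 encodes a factor of large ribosomal subunit maturation.

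At tbb-2 (WBGene00006537, III:4015910-4017627, minus strand) no summit lay within 500 bp of the gene start. The stronger of its summits, at III:4018291, lay 664 bp upstream with signal 260 and rank 743. Replicate 1 had it at rank 1000, 1 bp away, and replicate 2 at rank 572, 20 bp away. It fell in an exon of the non-coding RNA gene C36E8.10, which runs the opposite way, and the nearest coding 5′ end was that of tbb-2. The weaker summit, 1489 bp upstream at III:4019116, had rank 4578 and lay nearer to snpc-3.4, at 921 bp. In replicate 1 the nearest summit was 157 bp away at rank 5309, and in replicate 2 it was 97 bp away at rank 6324. On the other side, just beyond 100 bp, replicate 2 had a stronger summit at III:4019012, with rank 3052 and signal 44.1. The summit at III:4019116 was the only one of the 10 optimal summits without a match within 100 bp in both replicates.

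The gamma-tubulin gene tbg-1 (WBGene00006540, III:9626536-9629154, minus strand) had its summit 831 bp upstream, at III:9629985, with signal 140 and rank 2184. Replicate 1 ranked it 1877 (signal 94.4) and replicate 2 ranked it 3163 (signal 42.8). The summit was 100 bp upstream of rpac-19, which encodes a subunit of RNA polymerases I and III. It lay in the 211 bp between rpac-19 and the next gene upstream, ubc-7, on the same strand. A weaker region lay in a ubc-7 exon, 1030 bp upstream of tbg-1 at pooled rank 21113. Replicate 2 had it at rank 6406. The end of rpac-19 lies 91 bp before the start of tbg-1 on the same strand. No list had a summit between rpac-19 and tbg-1, and the one region inside tbg-1, 263 bp after its start in replicate 1, had rank 17442 of 30000.

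**Figure D2:**
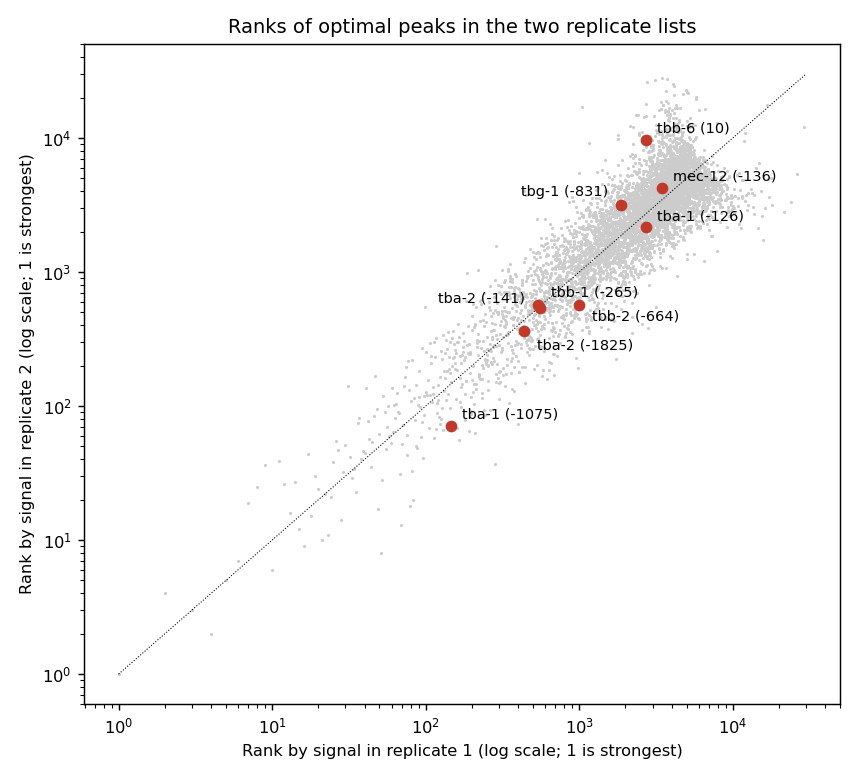
Rank by signal in replicate 1 (x, log scale) and replicate 2 (y, log scale) for the 5372 optimal peaks matched within 100 bp in both lists (grey) and the 9 matched summits in tubulin windows (red, with distance from the gene start in bp). The tba-2 and tbb-1 summits sit nearly on the dotted line of equal rank, and tbb-6 lies well above it.

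Of the touch neuron pair, mec-12 had a peak and mec-7 did not. At mec-12 (WBGene00003175, III:3131574-3139234, minus strand) the summit lay 136 bp upstream of the gene start at III:3139370, about as far as those of tba-1 and tba-2. It was weaker, with signal 88.6 and rank 3665, and it ranked 3441 in replicate 1 (signal 57.6) and 4234 in replicate 2 (signal 33). Its nearest neighbouring coding 5′ end, of C44B11.4, was 4387 bp away, so no other coding promoter lay near. The gene is the longest of the 10, at 7661 bp, and its window held 8 pooled regions, 9 in replicate 1 and 5 in replicate 2. Besides the peak at the start, the highest of them lay in an intron, 2348 bp after the start, at pooled rank 7730. Replicate 1 had that region at rank 8335 and replicate 2 at rank 7964, outside the highest 5692 of either. At mec-7 (WBGene00003171, X:7774856-7776689, minus strand) the only region in any list was in replicate 2, 273 bp upstream, with rank 10754 and signal 14.3. Neither replicate 1 nor the pool of both replicates listed a region there.

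The other 2 members differed in how far the replicates matched. At tbb-6 (WBGene00006539, V:12261531-12263368, plus strand) the summit lay 10 bp after the gene start, in the first exon, with signal 85.6 and rank 3810. It ranked 2709 in replicate 1 (signal 71.7) and 9657 in replicate 2 (signal 15.7), a factor of 3.56, and 97.6% of the matched optimal peaks had a smaller factor. It was thus outside the 5692 highest peaks of replicate 2, although it is in the pooled-based optimal list. At tbb-4 (WBGene00006538, X:9434452-9436893, minus strand) the highest of the regions was 263 bp upstream, at pooled rank 12252 with signal 27.9. Replicate 1 ranked a region there 18486 and replicate 2 ranked one 16471.

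The tba-4 gene (WBGene00006530, II:10918706-10920211, plus strand) was the only widely expressed member without an optimal summit. Its 3506 bp window held no summit in the optimal, pooled or replicate lists. Among all coding genes, 56.1% had a region of the pooled list in their window, 56.8% one of replicate 1 and 61.3% one of replicate 2. Within the members, 8 of 10 had a region in the pooled list and in replicate 1, and 9 of 10 in replicate 2.

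Tubulin genes resemble one another in sequence. The uniqueness of each gene was therefore measured as the share of positions whose next 32 bases occur once in the genome. Within 200 bp of all 10 optimal summits every position was unique. The 2000 bp upstream were unique throughout in 8 members, at 97.2% of positions in tba-4 and at 69% in tbb-4, where the most frequent 32 bases had 189 copies. The coding exons were 86.4% unique in tba-4 and between 95.7% and 100% in the other 9. The part of repeated sequence in the missing tba-4 and tbb-4 peaks was not tested.

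**Figure D3:**
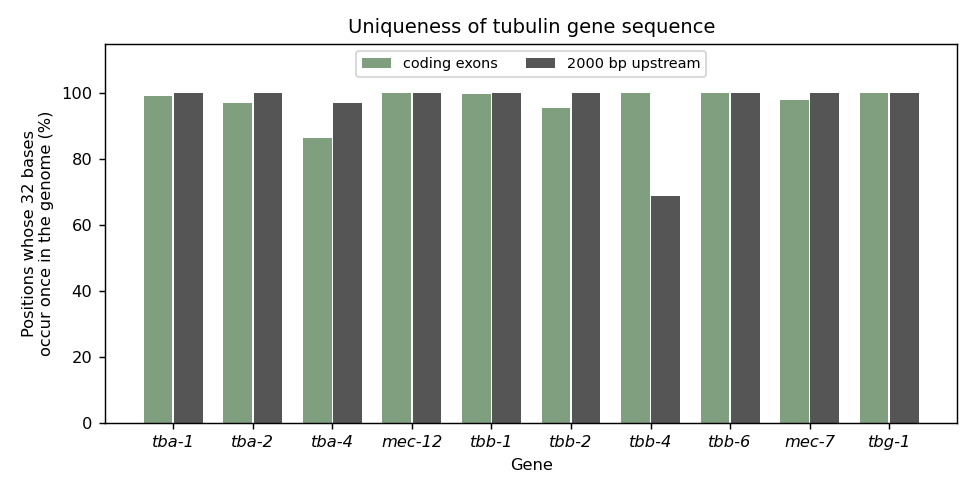
Share of positions whose 32 bases occur once in the WBcel235 genome, in percent, for the coding exons (green) and the 2000 bp upstream (grey) of each tubulin gene. The upstream sequence of tbb-4 stands at 69%, and the coding exons of tba-4 at 86.4%.

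The 5 optimal summits within 500 bp of an own 5′ end lay from 265 bp upstream to 10 bp downstream, with a median of -136 bp. Over all 2888 optimal summits within 500 bp of a coding 5′ end the median was -150 bp, with quartiles of -249 and -65 bp. Those of tba-1, mec-12 and tba-2, at -126, -136 and -141 bp, lay closest together.

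The tubulin summits were also searched for the short words that lead at the other optimal peaks. Across the 5682 optimal summits outside the tubulin windows, all 6-letter words were compared between the 50 bp either side of the summit and windows 300 bp away, on both strands. The 10 words with the largest excess were taken, and many of them overlap. A first set was GA-rich, with GAGAGA at 31.2% of these summits and 6.1% of the flanking windows, AGAGAG at 26.6% and 4.8%, AGAGAA at 29.9% and 10.6%, AAGAGA at 27.5% and 8.4%, and GAGAAA at 31.6% and 16.2%. The others were AGAGAC at 21% and 3.9%, CGTCTC at 19.1% and 2.9%, ACGCAG at 16.8% and 1.9%, GACGCA at 16.4% and 2%, and AGACGC at 15.7% and 2.3%. Searched within 100 bp, GAGAGA was present at 45.3% of all optimal summits and at 2 of the 10 in tubulin windows, tba-2 at -141 bp and tbb-2 at -1489 bp. AGAGAG was present at 39.5% of all optimal summits and at 4 of the 10, and GAGAAA at 51.8% and at 4 of the 10. AGAGAA was present at 47.1% and AAGAGA at 42.1%, each at 3 of the 10. ACGCAG was present at 23.3% of all optimal summits and at 1 of the 10, that of tbg-1. AGAGAC at 30.4%, CGTCTC at 27% and AGACGC at 21.9% were each at 1 of the 10, and GACGCA, at 22.3%, was at none. Among pooled regions outside the optimal list, GAGAGA was at 17.3%, AGAGAG at 14.6%, AGAGAA at 24.9%, AAGAGA at 21.3% and GAGAAA at 34.4%. There AGAGAC was at 9.93%, CGTCTC at 7.62%, ACGCAG at 5.39%, GACGCA at 5.52% and AGACGC at 5.13%. The tbb-1 summit and the distant tba-2 summit held none of the 10 words. None was held by 15.5% of all optimal summits and by 41.9% of pooled regions outside the optimal list. The median was 3 words per optimal summit and 1 per pooled region outside the optimal list.

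Several tubulin summits shared a longer word. Among all 12-letter words within 100 bp of the 10 summits, 1 was present at 3 different genes, and it is TATTTCGCAATA, or TATTGCGAAATA on the opposite strand. The genes were tba-1, tbb-2 and tbb-6. The word was chosen because these summits share it, so its presence there is no test. It was found within 100 bp of 14 of the 5692 optimal summits (0.246%), including the 3 tubulin ones. Outside the tubulin windows it was found at 11 of 5682 (0.194%). It was found at 14 of the 24308 pooled regions outside the optimal list (0.0576%) and in 8 of 11384 windows 500 bp from an optimal summit (0.0703%). The copies with 9 bp on either side read as follows, with the word in capitals.
tbb-2, III:4018282-4018311, minus strand: atatctgcaTATTTCGCAATAgtctattcg
tbb-6, V:12261572-12261601, plus strand: aatagactaTATTTCGCAATAgggaatagg
The tbb-2 copy is centred 6 bp from its summit and the tbb-6 copy 46 bp from its summit, inside the transcript. Both read the same way on the strand of the gene.

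At tba-1 a copy of the 12-letter word was centred 22 bp from the summit that lay 126 bp upstream, and a second copy lay 486 bp upstream of the gene start. The shorter word TCGCAATA, contained in it, was present at 4 genes, with tbb-1 added, whose copy was centred 8 bp from its summit. It had 2 copies near the tbb-2 summit, at 4 and 64 bp, and 2 near the tbb-6 summit, at 31 and 48 bp. It was found at 1.14% of all optimal summits, the 4 tubulin ones included, at 0.555% of pooled regions outside the optimal list and in the 1000 bp upstream of 2.59% of coding genes. Of the other 8-letter words, only ATTTCGCA and TTTCGCAA, which overlap it, were also present at 4 genes, and there mec-12 took the place of tbb-1. ATTTCGCA was found at 3.29% and TTTCGCAA at 4.81% of all optimal summits, again with the tubulin ones included. No copy of TCGCAATA lay in the windows of tba-2, tba-4, tbb-4, mec-7, mec-12 or tbg-1.

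The G and C content within 100 bp of the tubulin summits ranged from 31.8% at the distant tba-2 summit to 59.2% at the distant tbb-2 summit. The median over all optimal summits was 41.3%. The mec-12 and tbb-6 summits, both at 32.3%, were among the lower of the 10.

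Of the remaining tubulin genes examined, the alpha-tubulin genes tba-5, tba-6, tba-7, tba-8 and tba-9 and the beta-tubulin gene ben-1, an optimal summit lay in the windows of ben-1 and tba-7. This is 2 of 6 (33.3%), near the 27.4% of all coding genes. The highest of the 3 at ben-1, the target of benzimidazole drugs, had rank 947 and lay 1014 bp after the gene start. At tba-7 the summit had rank 4568 and lay 257 bp after the gene start, and a copy of TCGCAATA lay 60 bp upstream of the start, 317 bp from the summit.

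Genes whose products work with microtubules had optimal summits in 19 of 39 windows (48.7%, against 27.4% of all coding genes). The median was 0 summits per gene, both for the list and over all coding genes. Their median window was 5934 bp, longer than the 4027 bp of all coding genes. Close to a 5′ end, within 500 bp, the count was 10 of 39 (25.6%, against 17% of all coding genes). The highest were cls-2, encoding a CLASP that stabilises microtubules (rank 205, 966 bp upstream), spas-1, encoding the severing enzyme spastin (rank 237, 360 bp upstream), and dnc-1, encoding a dynactin subunit (rank 275, 65 bp upstream). For genes outside the 10 members, distances to the 5′ ends of neighbouring genes are not given. A distant summit, as at cls-2, is therefore not assigned to the gene. The gamma-tubulin ring components gip-1, gip-2 and mzt-1, which act with the product of tbg-1, had no optimal summit in their windows.

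Of 13 other genes known for touch neuron function, an optimal summit lay in the window of 1 (7.69%), against 27.4% of all coding genes. That gene was mec-6, which encodes a partner of the touch channel, at rank 5439 and 313 bp upstream. The transcription factor genes unc-86 and mec-3, which specify these neurons, and the channel subunit genes mec-4 and mec-10 had none. Thus mec-12 and mec-6 were the only ones with an optimal summit among these 13 genes and the 2 touch neuron tubulin genes. That depends on how the lists were drawn. The mec-17 gene, which had no optimal summit, was in both this list and that of the microtubule partners. The ptl-1 gene, placed only among the partners, had an optimal summit at rank 1657, 588 bp upstream. The median window of the 13 genes was 5750 bp, longer than the 4027 bp of all coding genes. Of the 13, alr-1, mec-2, mec-4, mec-5, mec-10 and mec-18 lie on the X chromosome, as do the members mec-7 and tbb-4. No share over the coding genes of X alone is given here. No test was made of the difference between these lists.

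**Figure D4:**
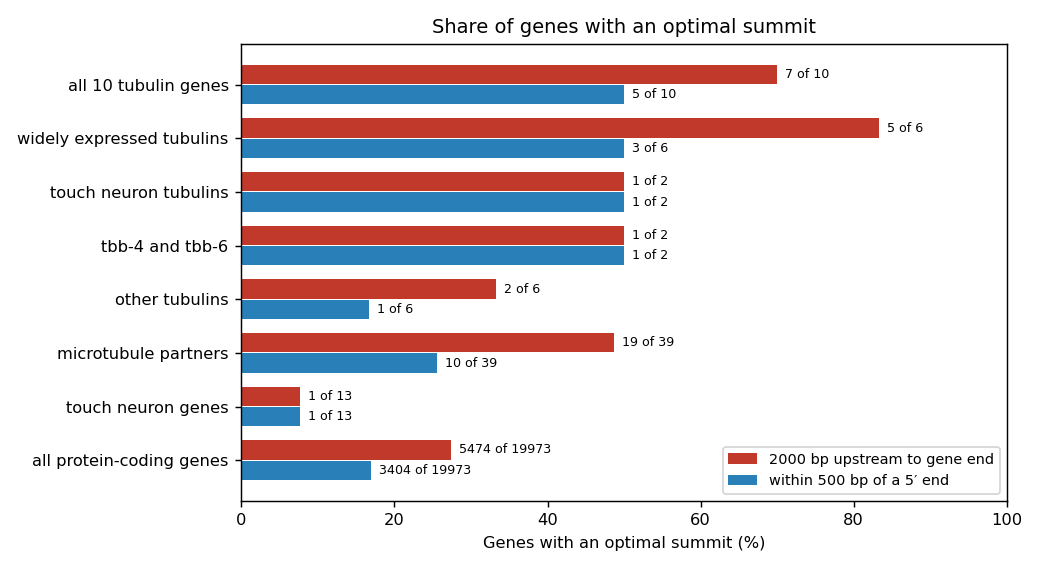
Share of genes with an optimal summit, in percent, from 2000 bp upstream to the gene end (red) and no more than 500 bp from a 5′ end (blue), with counts beside the bars. The 10 tubulin genes stand at 7 of 10 and 5 of 10, the touch neuron genes at 1 of 13 under both rules, and all protein-coding genes at 27.4% and 17%.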

How the data were processed

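ChIP-seq peak lists of eGFP-tagged C34F6.9 in whole L2 larvae were analysed, 2 biological replicates in 1 group. Per the deposited listing, each replicate list was called on that replicate with a control, the pooled list on both, and the optimal list by IDR from these 3. The aligner and the peak caller were not given in the sources used here. Peaks were ranked by the signal the authors deposited. All 5692 optimal peaks share the highest −log10 q-value the authors gave, 4.07, so it could not rank them. Depth is unknown, so no interval is given.

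The summit is the deposited start plus the offset plus 1, and positions are 1-based in ce11, whose lengths fit WBcel235. Genes came from Ensembl release 115 and sequence from RefSeq. No p-value was computed, since there is 1 group and genes are not replicates. Counts are given beside the same share over all 19973 nuclear coding genes. The members, lists, expression classes and tests were chosen with earlier results of these data known. Named genes were the members, the nearest other genes at their optimal summits, up to 3 per list and the 3 nearest in rank to the strongest member promoter. The genes pbs-2, C44B11.4, C36E8.10, ubc-7, ptl-1 and nipi-3 were chosen after their values were seen. So were genes named as lacking a summit and the 8- and 12-letter words. One list gene, hdac-6, was not found under that name. Ranks and words used Python 3.11.15, numpy 2.4.6, pandas 2.3.3 and matplotlib 3.10.9. The counting code was checked on simulated summits at known positions, which is no test of the tubulin counts. The ce10 lists were not used here.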

Additional observations from a re-analysis of the deposited data

How the results depend on the processing

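Each count was recomputed under other windows and lists. The number of tubulin genes with an optimal summit stayed between 5 and 8 of 10 under all 9 alternatives. It was 5 among the 2846 highest optimal peaks, where mec-12 and tbb-6 dropped out. The number of summits in the tubulin windows was 10, and fell to 5 from 500 bp upstream to the gene end, 5 within 500 bp of a 5′ end and 5 with each summit given to its nearest coding 5′ end only. It was 24 in the full pooled list. The number of coding genes with a summit, 5474, was 3404 within 500 bp of a 5′ end, 3529 with the 2846 highest peaks and 11203 with the full pooled list. Leaving out 1 replicate gave 6 and 7 tubulin genes, 9 and 11 summits, and 5359 and 5437 coding genes. Without replicate 1, tbb-6 lost its summit. The number of optimal summits matched in both replicates was 9 within 100 bp, 9 within 50 bp, 10 within 200 bp and 8 among the 5692 highest of each replicate. No paired analysis was possible because there is 1 group and no test between groups. The lists hold no counts, so a missing peak is not shown to be absence of binding.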

Other observations

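The 12-letter word shared by the tba-1, tbb-2 and tbb-6 summits has 134 copies in the nuclear genome. Of these copies, 15 lie within 100 bp of an optimal summit. The word lies within 1000 bp upstream of 34 of 19973 coding genes (0.17%), tba-1, tbb-2 and cox-5B among them. Of these 34 genes, 23 (67.6%) had an optimal summit from 2000 bp upstream to the gene end, against 27.4% of all coding genes. Within 500 bp of a 5′ end, 18 (52.9%) had one, against 17%. Both counts take any optimal summit there, near the word or not. The word was chosen from tubulin summits, so tba-1 and tbb-2 add to the 23 by construction, and tba-1 also adds to the 18. The divergent gene cox-5B shares the second tba-1 copy and adds to both counts, with the summit 26 bp from its start. No test was made. Only tba-1 and nipi-3, which encodes a Tribbles-like kinase, had 2 copies in that upstream sequence. The nipi-3 window held 3 optimal summits, with one or more within 500 bp of a 5′ end.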
